A study of Arabidopsis thaliana with 12 samples.

Results

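The transcripts of 7 *Arabidopsis* anti-silencing factors were followed in 4 genotypes, namely *BRAT1* (AT1G05910), its partner *BRP1* (AT3G15120), the IDM complex genes *IDM1* (AT3G14980), *IDM2* (AT1G54840), *IDM3* (AT1G20870) and *MBD7* (AT5G59800), and *ROS3* (AT5G58130). They were picked by name, with earlier results of these data known, and are 7 of the 34133 genes and isoform models listed in the deposited table. Seedlings of 10 days, grown on MS agar plates under long days, gave the polyadenylated RNA that was sequenced, from the wild type (ecotype Columbia, WT), *brat1*, *nrpe1* and the double mutant *brat1nrpe1*, with 3 replicates each. The mutation in *brat1* is a T-DNA insertion in *BRAT1* (allele *brat1-1*), and that in *nrpe1* is the allele *nrpe1-11* of *NRPE1*, the gene of the largest subunit of RNA polymerase V. The double mutant came from a cross of both, each gene is represented by 1 allele, and no mutant of *BRP1* or an IDM gene was analysed here. Nothing in the labels says that the replicates came from separate cultures, so p-values measure only the spread between these libraries.

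DNA methylation silences genes and transposable elements, and anti-silencing factors keep some of the methylated loci transcribed. ROS1, a 5-methylcytosine DNA glycosylase, removes methylation from DNA by base excision. MBD7 binds DNA that is dense in methylated CG sites, and with it act the histone H3 acetyltransferase IDM1 and the alpha-crystallin domain proteins IDM2 and IDM3, while ROS3 is an RNA-binding protein that helps to direct demethylation. BRAT1 carries a bromodomain, which binds acetylated histones, and an AAA-type ATPase domain. BRP1, which forms a complex with BRAT1, has an ATPase domain of the same type and a zinc finger like a plant homeodomain. The RNA-directed DNA methylation (RdDM) pathway, which needs *NRPE1*, works in the opposite direction and adds methylation. A question that the genotypes allow is whether the partners of BRAT1 are transcribed more when BRAT1 transcript is reduced, with or without RdDM.

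FPKM, the fragments per kilobase of transcript scaled to the fragments mapped in a library, were used as deposited and tested as log2(FPKM + 0.1) with limma across 22645 genes whose mean FPKM was at least 0.1. All 7 genes passed this filter. A gene is called changed when it differs by more than 1 on the log2 scale and its P before adjustment is under 0.01, and adjusted p-values are those of Benjamini and Hochberg over all 22645 genes. Replicate 1 stood apart from replicates 2 and 3 in every genotype, and same-numbered libraries deviated from their genotype means in common, so that results are also given from a model in which the replicate number is a block. The spread between replicates 2 and 3 was only 1.06 to 1.11 times that of counting reads, against 6.73 to 7.27 times between replicate 1 and either of them. Results are therefore also given with replicates 2 and 3 averaged into 1 sample, which was decided after seeing the data. The smallest steps of the values put the depth of replicate 1 above that of replicates 2 and 3 in every genotype. Read numbers per gene given below are approximate and come from these steps.

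Leaf and root markers were high throughout, for example *RBCS1A* from 13224 to 20245 FPKM and *SCR* from 17.8 to 21.4. The other root marker, *PYK10*, a gene of a beta-glucosidase of root ER bodies, was at 538 to 858 FPKM in WT, 653 to 1048 in *brat1*, 682 to 1025 in *nrpe1* and 819 to 1386 in *brat1nrpe1*. Its log2 difference against WT was 0.28, 0.31 and 0.63 in the 3 mutants in this order, with limma adjusted p-values of 1, 1 and 0.99, or 0.0090, 0.0024 and 2.9e-05 with the block. The seed storage genes *CRA1* and *CRU3* were at or below 3.71. Of the flower markers, which are genes of floral organ identity, *AP3* was at 0 to 0.215 in the 6 libraries without *brat1* and at 0.381 to 1.12 in the 6 with it, *PI* at 0.411 to 0.681 and 0.820 to 1.59, and *AG* at 0.135 to 0.263 and 0.129 to 0.368. *AP3* was called higher in *brat1* (log2 difference 2.24, limma adjusted p = 0.28, or 0.044 with the block), beside 0.384% of all tested genes called. Without *brat1* its values lay near the added 0.1, so the size of this difference depends on that constant. *AP3* was also called higher in *brat1nrpe1* against WT, and *PI* in *brat1nrpe1* against *nrpe1*, beside 0.839% and 0.508% of all tested genes called. Thus 2 of 3 flower markers separated the libraries by *brat1*. Of all tested genes, 3.45% were higher without overlap in *brat1* than in WT, and 4.2% in *brat1nrpe1* than in *nrpe1*. The values with the block for *PYK10* and *AP3* count replicates 2 and 3 as separate samples, and none is given with them averaged. The part of *PYK10* and the flower markers in the results below was not tested. In whole seedlings, fewer cells with a transcript and less of it per cell cannot be told apart.

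*BRAT1* lies on chromosome 1 from 1790216 to 1796715 (TAIR10.1, plus strand) and its transcript has 11 exons. Its FPKM was 11.0, 11.4 and 11.1 in WT replicates 1 to 3 and 3.44, 2.96 and 3.15 in *brat1*. In *nrpe1* the values were 10.8, 9.69 and 9.70, and in *brat1nrpe1* they were 3.11, 2.67 and 2.79. Every library with the *brat1* mutation thus held less than any library without it, and the remainder was 28.5% of the mean WT level in *brat1* and 28.4% of the *nrpe1* level in *brat1nrpe1*. The log2 difference was -1.78 in both backgrounds (95% CI -2.00 to -1.57, limma adjusted p = 0.00013), as called for 0.384% of all tested genes between *brat1* and WT and 0.508% between *brat1nrpe1* and *nrpe1*. With replicates 2 and 3 averaged it was -1.75 in *brat1* (limma adjusted p = 0.47, or 0.031 in the model with the block). The difference between both effects was 0.00 (95% CI -0.30 to 0.30). The *nrpe1* mutation alone gave a log2 difference of -0.15 (95% CI -0.36 to 0.06, limma adjusted p = 1), although its 3 libraries lay below those of WT, as for 2.21% of all tested genes.

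The transcript that remained in the mutant can be set against the position of the genotyping primers. The study lists a first left and right primer pair for *BRAT1*, shown because such pairs are placed on both sides of a T-DNA insertion. That the first pair belongs to the first allele is taken from its number only. Capitals mark bases inside an exon of the annotated transcript.
BRAT1-LP1: ATTCTCGTGGTCAAGTTGTTCTC
BRAT1-RP1: ctaaaacaaccaacaggacatcc
The left primer matches 1 place in the TAIR10.1 genome, chr1:1792740-1792762 on the plus strand, within exon 4, and the right primer matches chr1:1793700-1793722 on the minus strand, within intron 5. Of the 4018 bases of transcript, 1725 (42.9%) lie before this window, 791 (19.7%) in it and 1502 (37.4%) after it. FPKM is 1 value for the whole transcript, so the files do not say which of these stretches the remaining 28.5% came from.

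*BRP1*, on chromosome 3 from 5088093 to 5095965 (minus strand), did not differ beyond the spread between replicates in any comparison. Its FPKM was 7.79, 6.92 and 6.66 in WT and 7.95, 7.41 and 7.58 in *brat1*. It was 8.28, 6.46 and 6.40 in *nrpe1* and 8.54, 6.35 and 6.72 in *brat1nrpe1*. In each genotype the highest value was that of replicate 1, and the ranges of all genotypes overlapped. At each replicate number *brat1* was above WT, by log2 differences of 0.03, 0.10 and 0.18. The mean log2 difference was 0.10 (95% CI -0.21 to 0.41, limma adjusted p = 1). With the block the interval was -0.07 to 0.28. Between *brat1nrpe1* and *nrpe1* the log2 difference was 0.03 (95% CI -0.28 to 0.34), with 2 of 3 replicate numbers above 0. A rise of *BRP1* of more than 1.33-fold on the scale of FPKM + 0.1 therefore lies outside the interval in *brat1*, and one of more than 1.26-fold outside that in *brat1nrpe1*. Both limits count replicates 2 and 3 as separate samples, and none is given here with them averaged.

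As *BRAT1* fell and *BRP1* stayed within its spread, the balance of their transcripts turned. The ratio of *BRAT1* to *BRP1* FPKM was 1.41, 1.65 and 1.66 in the WT libraries and 0.433, 0.399 and 0.415 in *brat1*. The mean was 1.44 ± 0.117 for *nrpe1* and 0.400 ± 0.0308 for *brat1nrpe1* (SD, n = 3). *BRAT1* was thus the more abundant transcript in all 6 libraries without the *brat1* mutation and *BRP1* in all 6 with it, a pattern that the loss of *BRAT1* transcript sets. The longest match that *BRAT1* and *BRP1* have elsewhere in the genome is with each other, 282 bases at 68.4% identity. None of the 7 genes has another place in the genome that matches at least 98% over at least 100 bases.

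**Figure D1:**
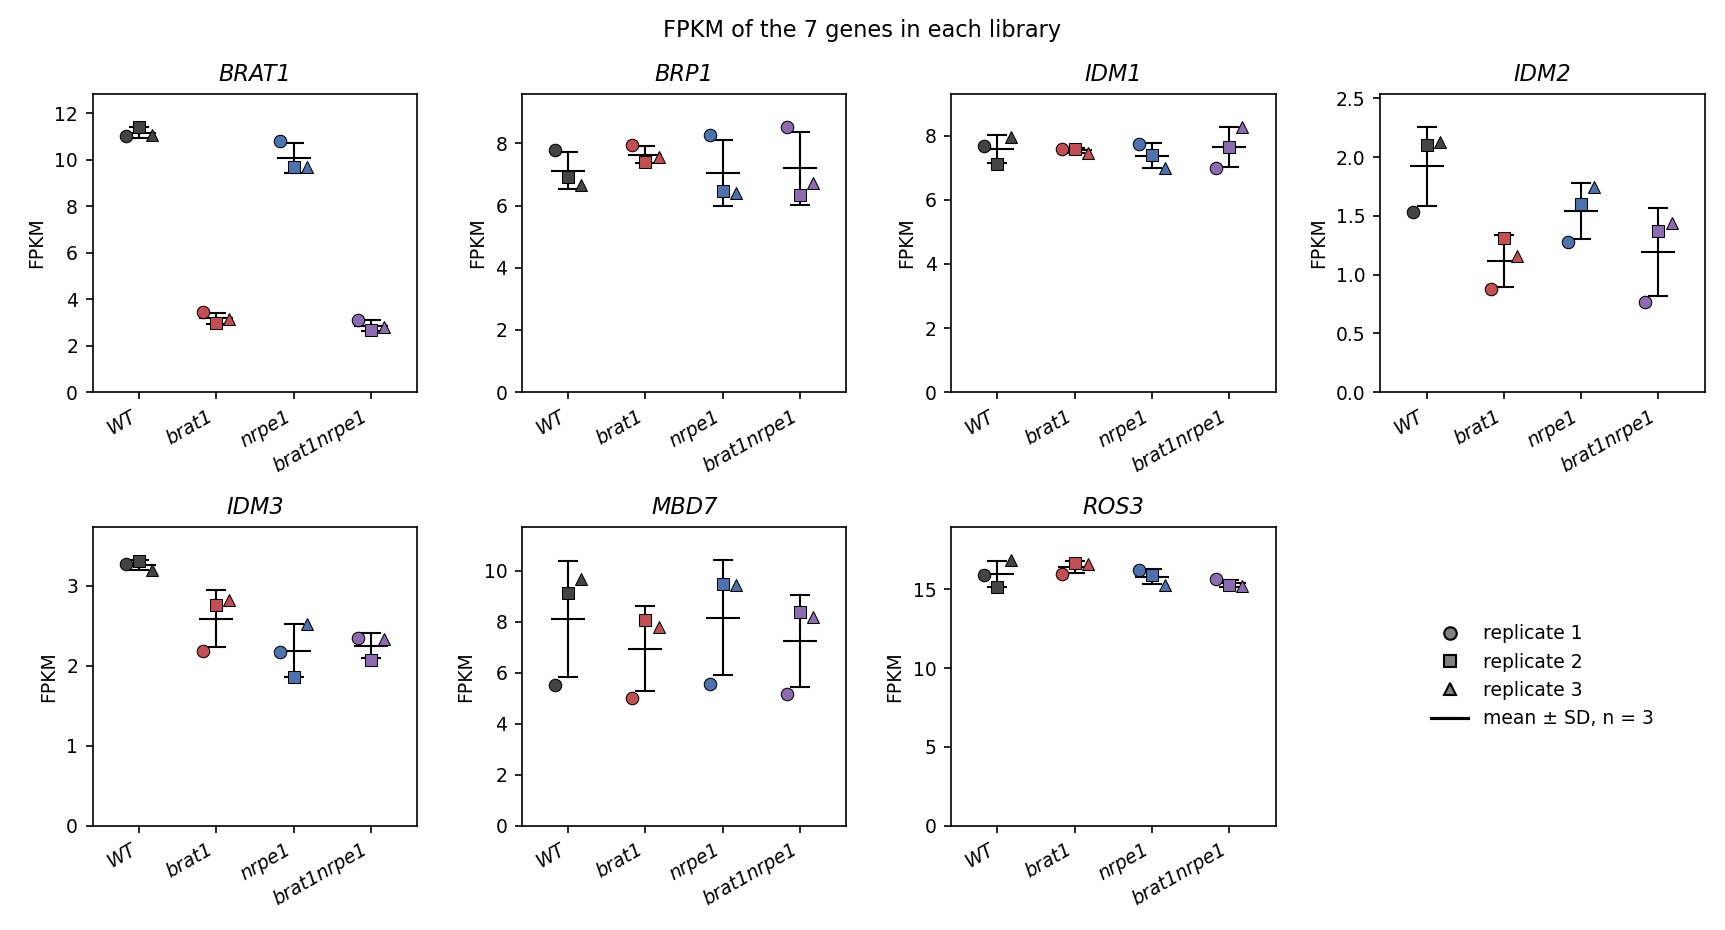
FPKM of the 7 genes in each library (vertical axes, each from 0) by genotype, with a symbol for each replicate number and bars for mean ± SD (n = 3). *BRAT1* was at 2.67 to 3.44 in the libraries with *brat1* and at 9.69 to 11.4 in the others, while *BRP1* and *IDM1* overlapped across genotypes.

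The 4 IDM complex genes differed from each other in level and in how they followed the genotypes. In WT the order of mean FPKM was *MBD7* (8.11), *IDM1* (7.58), *IDM3* (3.26) and *IDM2* (1.92), with *BRP1* (7.12) between *IDM1* and *IDM3*, *BRAT1* (11.2) above *MBD7*, and *ROS3* (16.0) highest. *MBD7* and *IDM1*, and *IDM1* and *BRP1*, had overlapping WT ranges, while the other neighbours in this order did not overlap. Of the tested genes, 20.6% had a lower WT mean than *IDM2* and 27.1% a lower one than *IDM3*, against 62.6% for *ROS3*. *IDM2* was the lowest of the 7 genes in every genotype.

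*IDM1*, the histone acetyltransferase, lies on chromosome 3 from 5039812 to 5045525 (minus strand), 42.6 kb from *BRP1*. Its FPKM was 7.68, 7.12 and 7.95 in WT and 7.60, 7.59 and 7.46 in *brat1*. In *nrpe1* it was 7.75, 7.40 and 6.98, and in *brat1nrpe1* it was 7.01, 7.65 and 8.28. All genotypes overlapped, and the highest of the 12 values was only 1.19 times the lowest. The log2 difference between *brat1* and WT was -0.01 (95% CI -0.20 to 0.19), and that between *brat1nrpe1* and *nrpe1* was 0.05 (95% CI -0.15 to 0.25). A short gene on the other strand, AT3G14981, lies within *IDM1* over 219 bases. It was listed at 25.7 to 36.6 FPKM in replicate 1 and at 0 to 10.5 in the others. The library kit does not mark strand, so reads of both genes cannot be told apart there.

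*IDM2*, whose protein has an alpha-crystallin domain, had lower values in every *brat1* library than in any WT library. The gene lies on chromosome 1 from 20452593 to 20454266 (minus strand). Its FPKM was 1.54, 2.11 and 2.13 in WT replicates 1 to 3 and 0.880, 1.31 and 1.16 in *brat1*. In *nrpe1* it was 1.28, 1.60 and 1.75, and in *brat1nrpe1* it was 0.765, 1.37 and 1.44. The 3 *brat1* libraries lay below the 3 WT libraries, as for 2.94% of all tested genes, and so did the 3 *brat1nrpe1* libraries (3.75%), while *brat1nrpe1* and *nrpe1* overlapped. Replicate 1 was the lowest library of each genotype.

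On the log2 scale the *IDM2* difference between *brat1* and WT was -0.74 (95% CI -1.31 to -0.16, limma adjusted p = 1), a mean FPKM of 58.1% of WT. By replicate number it was -0.74, -0.64 and -0.83. *IDM2* was not called in any comparison, as its differences were smaller than 1. With the block the difference had a limma adjusted p of 0.054, without replicate 1 of 0.045, and with replicates 2 and 3 averaged of 1 (0.38 with the block as well). The log2 difference between *brat1nrpe1* and *nrpe1* was -0.38 (95% CI -0.95 to 0.19, limma adjusted p = 1), with replicate numbers at -0.67, -0.21 and -0.26. Between *nrpe1* and WT it was -0.30 (95% CI -0.87 to 0.27, limma adjusted p = 1, or 0.43 with the block), below 0 at 3 of 3 replicate numbers (-0.25, -0.37 and -0.27). The effects of *brat1* on *IDM2* in the WT and *nrpe1* backgrounds were not shown to differ (difference 0.36, 95% CI -0.45 to 1.16).

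Averaged over both backgrounds, the log2 difference of *IDM2* with *brat1* was -0.56 (95% CI -0.96 to -0.15, limma adjusted p = 0.50). In the model with the block the adjusted p was 0.013, and 2.85% of all tested genes were lower at an adjusted p under 0.05 in that fit. With replicates 2 and 3 averaged and the block it was 0.13. Between *brat1nrpe1* and WT the difference was -0.68 (limma adjusted p = 0.73, 0.027 with the block, 0.16 with the block and replicates 2 and 3 averaged), and 2.42% of all tested genes were lower at an adjusted p under 0.05 with the block. *IDM2* is a gene with few reads, approximately 148 over the WT libraries and 87 over the *brat1* libraries. Counting alone gives the difference between *brat1* and WT a standard error of 0.20 on the log2 scale, which is larger than the 0.14 of the model with the block and smaller than the 0.26 of the model without it. Over both backgrounds counting alone gives 0.15, also larger than the 0.10 of the model with the block. Between *brat1nrpe1* and WT it gives 0.20, against 0.14 with the block.

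The neighbours of *IDM2* had log2 differences near 0 in *brat1* against WT. *NF-YC3* (AT1G54830), a subunit of a transcription factor complex, shares 79 bases with the end of *IDM2* on the other strand and was at 23.6 to 33.7 FPKM, with a difference of 0.02 (95% CI -0.34 to 0.38). As the library kit does not mark strand, reads of both genes cannot be told apart over these 79 bases. How much of the low *IDM2* values came from *NF-YC3* was not tested. On the other side, AT1G54850, named after its values were seen, starts 122 bases from the start of *IDM2* and runs the other way. It was at 7.87 to 13.5 FPKM with a log2 difference of 0.01 (95% CI -0.53 to 0.55). Between *brat1nrpe1* and *nrpe1* the log2 difference of AT1G54850 was -0.21 (95% CI -0.39 to -0.04 with the block, limma adjusted p = 0.18). It was below 0 at 3 of 3 replicate numbers. In the same comparison *NF-YC3* was at -0.12 (95% CI -0.27 to 0.04 with the block) and *IDM2* at -0.38.

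*IDM3*, the other alpha-crystallin domain gene, had lower values in all mutant libraries than in WT. It lies on chromosome 1 from 7259023 to 7261524 (minus strand). The WT values were 3.27, 3.32 and 3.20 FPKM, and those of *nrpe1* were 2.17, 1.87 and 2.52. In *brat1* they were 2.18, 2.77 and 2.82, and in *brat1nrpe1* they were 2.35, 2.07 and 2.34. All 9 mutant libraries lay below the 3 WT libraries, which was so for 0.411% of the tested genes. *BRAT1* was the other of the 7 genes of which this was true.

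The log2 difference of *IDM3* was -0.57 in *nrpe1* (95% CI -0.88 to -0.25, limma adjusted p = 0.39), -0.33 in *brat1* (95% CI -0.65 to -0.02, limma adjusted p = 1) and -0.52 in *brat1nrpe1* (95% CI -0.83 to -0.20, limma adjusted p = 0.31), each against WT. In the same order, the adjusted p-values of limma were 0.092, 0.32 and 0.052 once the block was added, and 0.43, 0.60 and 0.22 when replicates 2 and 3 were averaged as well. None passed the threshold for a call. Without replicate 1 the difference in *brat1* was -0.21 (limma adjusted p = 0.56). Between *brat1nrpe1* and *nrpe1* the difference was 0.05 (95% CI -0.27 to 0.36), so adding *brat1* to *nrpe1* gave no difference beyond the spread. The effects of *brat1* in both backgrounds were not shown to differ (difference 0.38, 95% CI -0.07 to 0.83). The 3 WT values, from 3.20 to 3.32, lay close together beside the approximately 353 reads they rest on. Counting gives the difference between *nrpe1* and WT a standard error of 0.13, against 0.14 in the model. AT1G20875, which shares 44 bases with *IDM3* on the other strand, was listed at 0 in all libraries.

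The sequences before the starts of *IDM2* and *IDM3* are shown as these were the partners with P under 0.05 in *brat1*. Each is read from RefSeq TAIR10.1 over 122 bases before the annotated start, on the minus strand, which for *IDM2* is the whole stretch up to AT1G54850 and for *IDM3* overlaps AT1G20875. Capitals mark CACGTG, the core of the G-box of plant promoters, a motif chosen after the sequences were read and the same on both strands.
IDM2, chr1:20454267-20454388: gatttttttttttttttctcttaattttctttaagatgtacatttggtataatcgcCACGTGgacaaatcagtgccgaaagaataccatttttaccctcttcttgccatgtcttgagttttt
IDM3, chr1:7261525-7261646: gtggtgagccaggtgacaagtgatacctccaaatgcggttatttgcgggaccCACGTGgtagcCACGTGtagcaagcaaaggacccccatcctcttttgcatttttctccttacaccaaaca
CACGTG occurred 1 time in the *IDM2* window and 2 times in that of *IDM3*, and in none of the windows of the other 5 genes. Of 27443 windows of this length before protein-coding genes, 4.24% held it at least once and 0.528% at least 2 times. These letters are a description of the windows and not evidence that a factor binds there.

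*MBD7*, the protein that recognises methylated CG sites, varied mainly with the replicate number. The gene lies on chromosome 5 from 24094359 to 24096532 (minus strand). Its FPKM was 5.51, 9.14 and 9.69 in WT and 5.01, 8.06 and 7.78 in *brat1*. In *nrpe1* it was 5.55, 9.50 and 9.42, and in *brat1nrpe1* it was 5.17, 8.37 and 8.19. All 4 replicate 1 libraries, at 5.01 to 5.55, lay below all 8 others, at 7.78 to 9.69, and the genotypes overlapped as groups. The mean log2 difference of replicate 1 from the other libraries of its genotype was -0.71 for *MBD7*, and 10.7% of all tested genes were lower still. Such a shift was therefore not particular to *MBD7*. The share of tested genes with all replicate 1 libraries below all others was not counted. Within a replicate number both libraries with the *brat1* mutation were below both libraries without it, in 3 of 3 numbers. This was so for 3.27% of the tested genes, and among the 7 genes for *BRAT1*, *IDM2* and *MBD7*.

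The *MBD7* difference between *brat1* and WT was -0.21 on the log2 scale (95% CI -0.91 to 0.49), and that between *brat1nrpe1* and *nrpe1* was -0.16 (95% CI -0.86 to 0.54), with limma adjusted p-values of 1. With the block these intervals narrowed to -0.35 to -0.07 and -0.30 to -0.02, with limma adjusted p-values of 0.18 and 0.19. Over both backgrounds the difference was -0.18, with a limma adjusted p of 1 without the block, 0.036 with it, 0.027 without replicate 1 and 0.24 with the block and replicates 2 and 3 averaged. The standard error of this value with the block, 0.04, was smaller than the 0.06 that counting reads alone gives. In *nrpe1* it was 0.01 (95% CI -0.69 to 0.71, and -0.13 to 0.15 with the block). The mean in *brat1* was 85.6% of that of WT, against 58.1% for *IDM2* and 79.4% for *IDM3*.

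**Figure D2:**
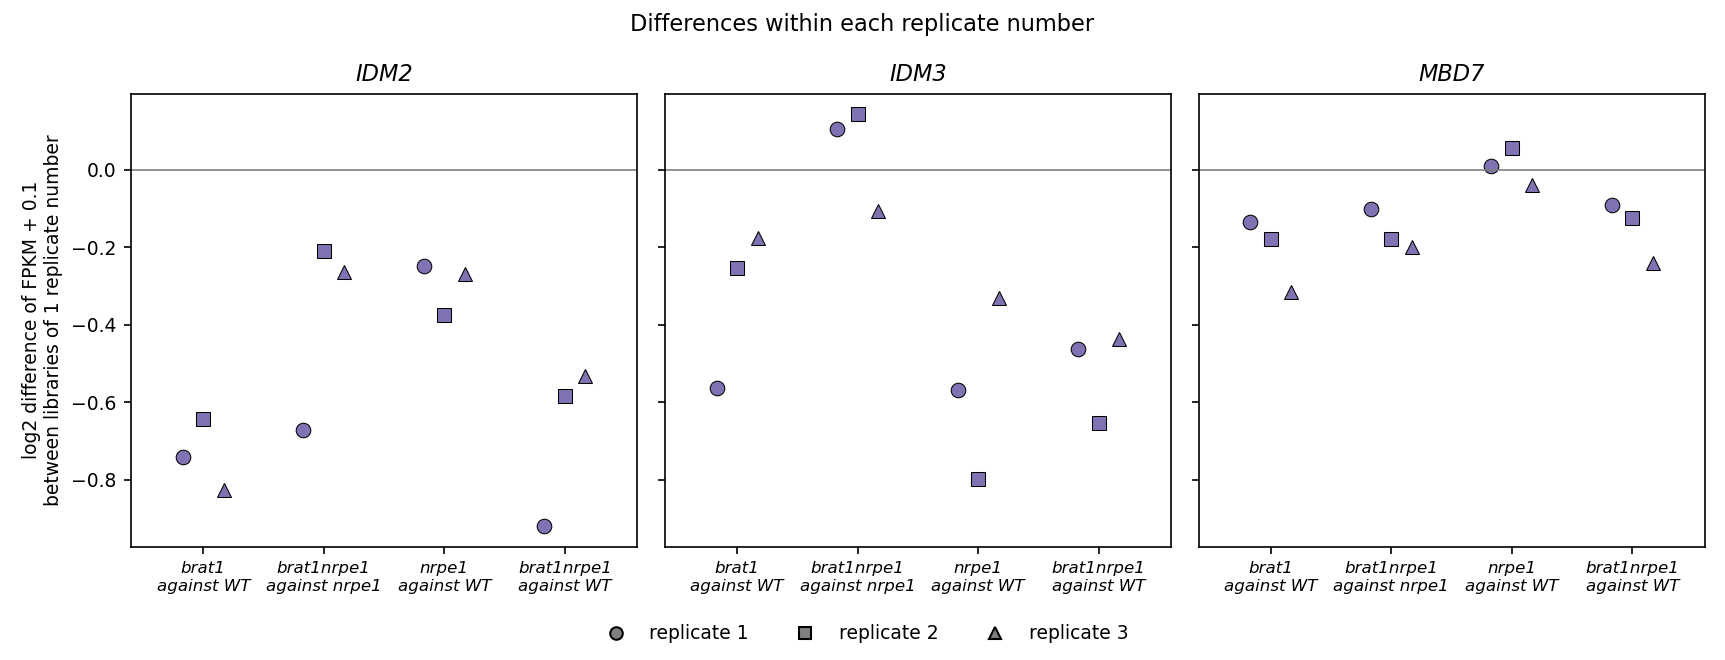
Log2 differences of FPKM + 0.1 between libraries of the same replicate number (vertical axis) for *IDM2*, *IDM3* and *MBD7* in 4 comparisons, 1 symbol for each replicate number. *IDM2* and *MBD7* were below 0 in 3 of 3 numbers in both comparisons that add *brat1*, as for 7.27% of all tested genes. *IDM3* was below 0 in 3 of 3 numbers for each mutant against WT.

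*ROS3*, the RNA-binding factor, was the most abundant and the steadiest of the 7 transcripts. It lies on chromosome 5 from 23521049 to 23523818 (minus strand). Its FPKM was 15.9, 15.2 and 16.9 in WT, 16.0, 16.7 and 16.6 in *brat1*, 16.2, 15.9 and 15.3 in *nrpe1*, and 15.6, 15.3 and 15.2 in *brat1nrpe1*. The highest value was 1.11 times the lowest, and the only genotypes that did not overlap were *brat1* and *brat1nrpe1*, the latter lower, as for 2.03% of all tested genes. The log2 difference was 0.04 between *brat1* and WT (95% CI -0.11 to 0.19) and -0.04 between *brat1nrpe1* and *nrpe1* (95% CI -0.19 to 0.11). AT5G58120, which shares 19 bases with the end of *ROS3* on the other strand, was at 0.999 to 5.20 FPKM. A long non-coding RNA annotated on the other strand over 1110 bases of *ROS3* (AT5G08820) was not analysed here. Without strand marks, its reads cannot be told apart from those of *ROS3* there.

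For the question of compensation, 0 of the 6 partners were called in any comparison. The share of all tested genes called was 0.384% in *brat1* and 0.662% in *nrpe1* against WT, 0.508% for adding *brat1* to *nrpe1*, 0.433% for adding *nrpe1* to *brat1*, 0.839% in *brat1nrpe1* against WT, 0.397% for *brat1* over both backgrounds and 0.283% for the difference between both effects. In *brat1* against WT 2 had a log2 difference above 0 and 4 below 0, with a median of -0.11, beside 0.0021 over all tested genes. At an unadjusted limma P under 0.05, 2 of the 6 were lower (*IDM2* and *IDM3*) and 0 were higher, against 1.37% and 1.58% of all tested genes. In *brat1nrpe1* against *nrpe1*, 0 were lower and 0 were higher at this level, against 2.11% and 2.15%, and the median was -0.0054. Against WT, 1 was lower in *nrpe1* (*IDM3*, beside 1.08% of all tested genes) and 2 were lower in *brat1nrpe1* (*IDM2* and *IDM3*, beside 2.19%). Averaged over both backgrounds, 1 was lower with *brat1* (*IDM2*, beside 2.76%). The highest upper limit of the 95% intervals was that of *MBD7* in both, a 1.40-fold rise in *brat1* and a 1.45-fold rise in *brat1nrpe1*, and with the block no partner's interval reached beyond 1.21-fold and 1.27-fold. These are the widest intervals, and those of *BRP1*, *IDM1* and *ROS3* without the block were narrower. All of these limits count replicates 2 and 3 as separate samples, although their spread was little more than that of counting reads. With both averaged into 1 sample, no such limit is given here. The levels of the proteins were not measured.

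**Figure D3:**
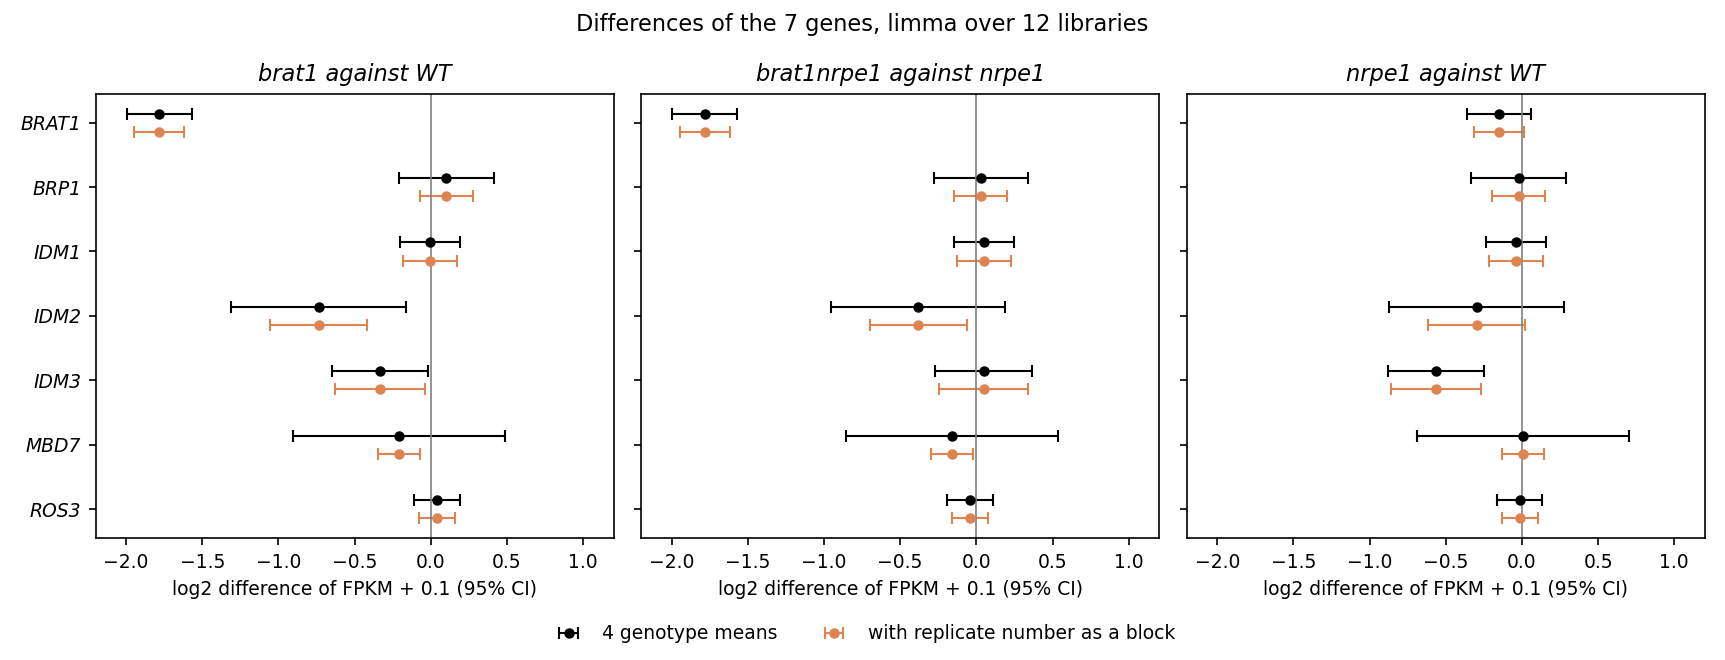
Log2 differences of FPKM + 0.1 (horizontal axes) with 95% confidence intervals for the 7 genes in 3 comparisons, from limma over 12 libraries without (black) and with (orange) the replicate number as a block. *BRAT1* was at -1.78 in both comparisons that add *brat1*, and the interval of no partner lay above 0.

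The proportions within the IDM complex followed these values. The ratio of *IDM2* to *IDM1* FPKM had a mean of 0.255 ± 0.0493 for WT, 0.211 ± 0.0430 for *nrpe1*, 0.148 ± 0.0293 for *brat1* and 0.154 ± 0.0391 for *brat1nrpe1* (SD over 3 libraries). The ratio of *IDM3* to *IDM1* had a mean of 0.431 ± 0.0322 for WT, 0.298 ± 0.0568 for *nrpe1*, 0.343 ± 0.0491 for *brat1* and 0.296 ± 0.0341 for *brat1nrpe1* (SD over 3 libraries). In *brat1* both ratios lay below WT at each replicate number, and this was also so in *nrpe1* and *brat1nrpe1*. These ratios repeat the differences of *IDM2* and *IDM3*, as *IDM1* varied little, and were not tested on their own.

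**Figure D4:**
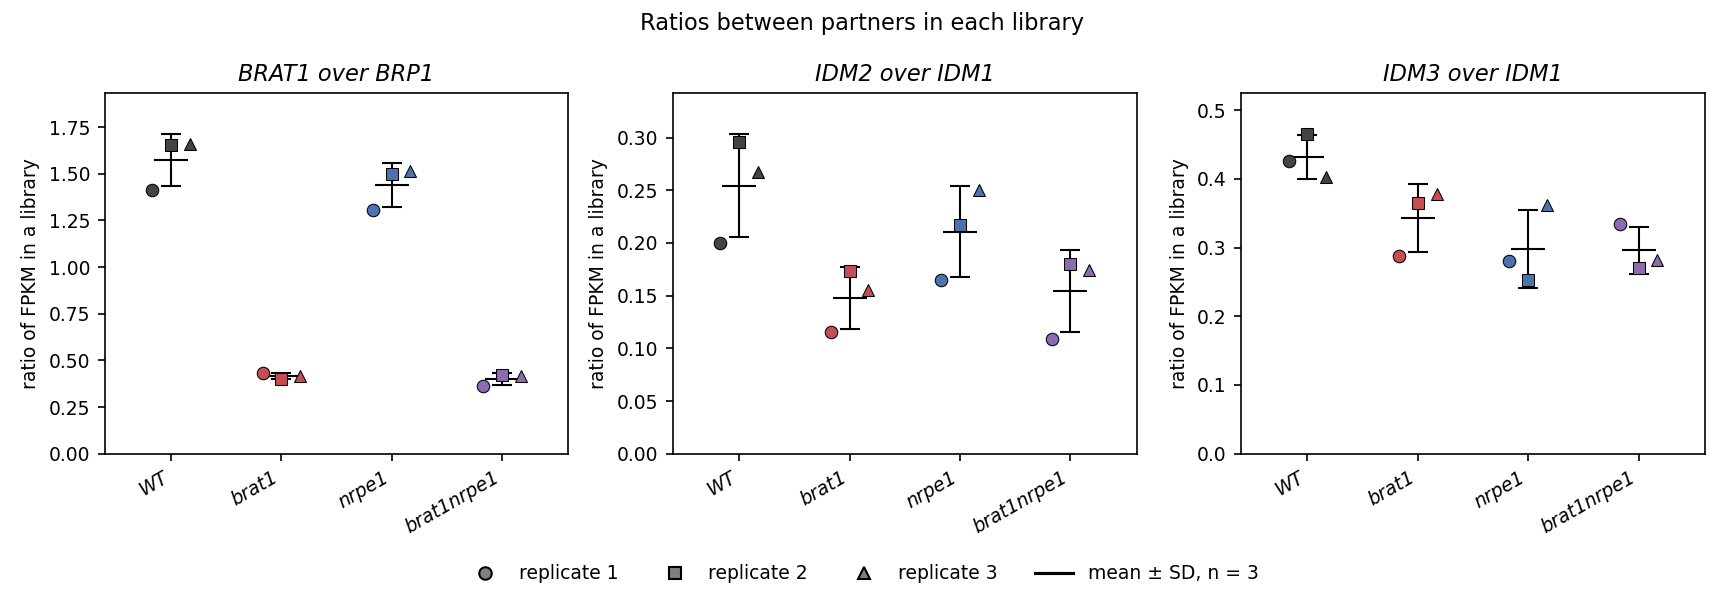
Ratios of FPKM within each library (vertical axes, each from 0) by genotype, with a symbol for each replicate number and bars for mean ± SD (n = 3). *BRAT1* over *BRP1* lay at 0.365 to 0.433 with the *brat1* mutation and at 1.31 to 1.66 without it, and *IDM2* over *IDM1* and *IDM3* over *IDM1* had their highest mean in WT.

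Across the 12 libraries, after the mean of each replicate number was subtracted, the log2 values of *BRAT1* had a Pearson correlation of 0.90 with *IDM2* and 0.91 with *MBD7*, of 0.35 with *IDM3* and of -0.38 with *BRP1*. *IDM2* and *MBD7* had one of 0.80. These are descriptions of 12 libraries that share genotypes and replicate numbers, and the 6 libraries with the mutation set most of the spread of *BRAT1*. Of 19492 genes searched, all with a mean FPKM not under 1, those most like *BRAT1* by this measure were AT5G05110 (r = 0.99), *SKS6* (AT1G41830, r = 0.99) and AT1G22140 (r = 0.98). Their mean FPKM went from 20.2 in WT to 15.0 in *brat1*, from 71.9 to 62.7 and from 51.9 to 36.3. Those most like *BRP1* were *RAD50* (AT2G31970, r = 0.95), *NRT2.7* (AT5G14570, r = 0.95) and *ESP* (AT4G22970, r = 0.94).

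*ROS1*, the DNA glycosylase in whose pathway the IDM proteins and ROS3 act, changed far more than any partner in *nrpe1* against WT. Its FPKM was 16.8, 15.0 and 15.3 in WT and 23.3, 19.3 and 18.7 in *brat1*. It was 2.56, 1.88 and 1.83 in *nrpe1* and 4.76, 3.64 and 3.66 in *brat1nrpe1*. The 4 genotypes did not overlap. Of all tested genes, 3.45% were higher without overlap in *brat1* than in WT and 4.2% in *brat1nrpe1* than in *nrpe1*. In *nrpe1* 2.21% were lower than in WT without overlap. The share with all 4 genotypes apart was not counted. The decrease in *nrpe1* was called, as for 0.662% of all tested genes (log2 difference -2.86, 95% CI -3.22 to -2.51, limma adjusted p = 1.7e-05). Adding *brat1* gave a log2 difference of 0.37 in the WT background (limma adjusted p = 1, 0.054 with the block) and of 0.92 in the *nrpe1* background (limma adjusted p = 0.080, 0.00052 with the block), neither of which passed the threshold for a call. These values for *ROS1* with the block count replicates 2 and 3 as separate samples, and none is given with them averaged. The 0.37 in the WT background was smaller in size than the -0.74 of *IDM2* in the same comparison. *NRPE1* (AT2G40030) itself was at 4.14 to 5.72 FPKM in WT and *brat1* and at 1.02 to 1.42 in *nrpe1* and *brat1nrpe1*, which separates the libraries as they are labelled.

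Of the other genes of demethylation and histone acetylation, listed by function, few were called. Among 8 genes of the DNA demethylation enzymes and the repair steps that follow them, 0 were called in *brat1* against WT and 1, *ROS1*, was called lower in *nrpe1* against WT, in *brat1nrpe1* against WT (0.839% of all tested genes called) and in *brat1nrpe1* against *brat1* (0.433%). In *brat1* against WT the median log2 difference of the 8 genes was 0.06. None of the 11 tested of 12 histone acetyltransferase genes was called in any comparison, with a median of -0.01 in *brat1* against WT. The same held for 5 genes of bromodomain proteins named in the study (median -0.02), 10 tested of 11 other MBD genes (median -0.02) and the 2 subunits of FACT, a histone chaperone (median -0.17). At an unadjusted limma P under 0.05 in *brat1* against WT, 1 histone acetyltransferase gene and 1 FACT gene were lower and 1 demethylation gene, *ROS1*, was higher, beside 1.37% and 1.58% of all tested genes. Of the genes of these lists, *ROS1* alone reached this level in the other comparisons between genotypes, apart from 1 histone acetyltransferase gene that was lower in *brat1nrpe1* against WT (2.19%). *ROS1* was lower in *nrpe1* (1.08%) and *brat1nrpe1* (2.19%) against WT and in *brat1nrpe1* against *brat1* (0.914%), and higher in *brat1nrpe1* against *nrpe1* (2.15%).

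With the block and averaged over both backgrounds, 2 of the 10 other MBD genes and 1 of the 2 FACT genes were lower with *brat1* at an adjusted p under 0.05, beside 2.85% of all tested genes, and *ROS1* was higher, beside 3.5%. The MBD genes were *MBD4* (AT3G63030) and *MBD6* (AT5G59380), both named after their values were seen. *MBD4* was at 10.5 to 18.5 FPKM in the 6 libraries without *brat1* and at 7.94 to 14.2 in the 6 with it. As for *MBD7*, replicate 1 was lowest in each genotype, and within each replicate number both libraries with *brat1* were below both without it. Its log2 difference over both backgrounds was -0.37 (limma adjusted p = 1, or 0.0066 with the block), against -0.24 for *MBD6* (0.84, or 0.034 with the block) and the -0.18 of *MBD7*, so *MBD7* was not the MBD gene with the largest difference. The values with the block in this paragraph count replicates 2 and 3 as separate samples. Unlike for *IDM2* and *MBD7*, none is given with both averaged or beside the error of counting reads.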

How the data were processed

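RNA was extracted from seedlings, and libraries of poly-A RNA were made with a kit that does not mark strand. The authors mapped the reads to TAIR10 with TopHat, used those that mapped to 1 place, and deposited FPKM from Cufflinks, 1 column per library. The submitters' processing notes name TopHat2 2.0.12, Cufflinks 2.0.1, Bowtie and Cuffdiff. All 12 libraries were mapped to groups by their labels. Gene positions and sequences are those of TAIR10.1.

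limma 3.58.1 in R 4.3.3 was fitted to log2(FPKM + 0.1) with 4 genotype means and a trend on mean expression, for the 22645 genes whose mean FPKM reached 0.1. All P are two-sided. FPKM carry no counts, so depth and reads are approximate, from the smallest steps of the values. The paper lists the mapped reads of each library, also with replicate 1 deepest in every genotype. The depths from the steps were lower than these in every library, and the read numbers were not adjusted to them. Same-numbered libraries had deviations correlated at 0.68 on average (0.59 to 0.84 over 18 pairs), which is why the replicate number was used as a block. Different-numbered libraries were at -0.27 on average (-0.73 to 0.62 over 36 pairs). With replicate 1 apart from the others, these values do not show that numbers 2 and 3 each pair the libraries. The model without the block was run on simulated data with independent noise in each library. Those data had no replicate effect, so they cannot show how the model behaves with the replicates here. Python 3.11.15, pandas 2.3.3, numpy 2.4.6, matplotlib 3.10.9 and BLAST 2.17.0 were used for the rest.

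Genes named were the 7 factors, *NRPE1*, *ROS1*, list genes that were called, genes that overlap a factor, tissue markers, AT1G54850, *MBD4* and *MBD6* after their values were seen, and the 3 genes most like *BRAT1* and *BRP1*. The factors and lists were chosen with earlier results of these data known. Alternatives were pseudocounts of 1 and 0.01, no filter, a mean FPKM of at least 1, the block, only the groups compared, the same 75th percentile, each replicate left out, and the mean of replicates 2 and 3 as 1 sample without and with the block.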

Additional observations from a re-analysis of the deposited data

How the results depend on the processing

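The count of the 7 genes called was the same under every alternative in every comparison, 1 (*BRAT1*) wherever genotypes with and without *brat1* were compared and 0 otherwise, and that of the pathway genes called was also the same. Of 354 values of single genes under alternatives, 337 kept their direction and their side of the threshold. The 17 others were small differences that changed sign without a call. Leaving out 1 replicate moved *IDM1* between -0.054 and 0.038 in *brat1*, -0.087 and 0.033 in *nrpe1* and -0.048 and 0.15 in *brat1nrpe1* against *nrpe1*. It moved *ROS3* between -0.0066 and 0.072 in *brat1* and -0.057 and 0.049 in *nrpe1*, *BRP1* between -0.076 and 0.015 and *MBD7* between -0.015 and 0.033 in *nrpe1*, and *IDM3* between -0.0011 and 0.12 in *brat1nrpe1* against *nrpe1*. With the mean of replicates 2 and 3 as 1 sample, *BRP1* in *nrpe1* was at 0.0048, also with the replicate block. The difference between the *BRAT1* effects in both backgrounds was -0.0030 with a pseudocount of 0.01, -0.0043 with the same 75th percentile, -0.028 with replicates 2 and 3 averaged, with or without the block, and from -0.047 to 0.056 with 1 replicate left out. The cause was not tested.

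Over all tested genes the number called depended on the setting, from 25 to 173 beside 87 in *brat1* against WT, 62 to 278 beside 150 in *nrpe1* against WT, 33 to 250 beside 115 in *brat1nrpe1* against *nrpe1*, 40 to 204 beside 98 in *brat1nrpe1* against *brat1*, 64 to 331 beside 190 in *brat1nrpe1* against WT, 19 to 149 beside 90 for *brat1* over both backgrounds and 17 to 243 beside 64 for the difference between both effects. In the model with the replicate block, 139 genes were called in *brat1* against WT, 184 in *brat1nrpe1* against *nrpe1* and 115 for the difference between both effects. Depth limits *IDM2* most, with approximately 22 reads in its shallowest library, a counting error of 21.1%, and *IDM3* next, with 45 reads and 14.9%.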
